A study of Mus musculus with 80 samples.

Results

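The 29 genes described here, except Abcd4, encode proteins that build peroxisomes, bring enzymes and fatty acids into them or oxidise fatty acids inside them. The genes were taken by symbol from a written list, chosen with earlier results of these data known. All 29 symbols were found among the 32764 named genes counted in the series. Brown fat (BAT), inguinal white fat (iWAT), muscle and liver were profiled by RNA sequencing in 4 genotypes (WT, UCP1 KO, FGF21 KO and dKO), each with 5 libraries per tissue, which gives 80 libraries. UCP1 KO mice lack uncoupling protein 1, which lets brown fat mitochondria turn fuel oxidation into heat. FGF21 KO mice lack the hormone fibroblast growth factor 21, and dKO mice, obtained by crossing both knockouts and written UCP1/FGF12 double KO in the design text, lack both. All mice were male on a C57BL/6J background, and the knockouts were homozygous and lacked their gene or genes in the whole body, while WT mice carried no deletion. All of them, WT included, were raised at 30 °C, and at 10 to 12 weeks of age were moved to room temperature and to a high-fat diet for 3 weeks, with food removed for 2 to 3 hours before tissue collection.

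Peroxisomes are small organelles that shorten very-long-chain, branched-chain and dicarboxylic fatty acids and pass the products to mitochondria. Their proteins are made in the cytosol and brought in by peroxins, the products of the Pex genes, while ABC transporters of the D subfamily carry acyl-CoA across the membrane. Abcd4 is listed with that subfamily, but its product acts in lysosomal cobalamin export. Inside, an acyl-CoA oxidase, a bifunctional enzyme and a thiolase carry out beta-oxidation, and alpha-oxidation removes a single carbon from methyl-branched acids such as phytanic acid. In liver, several of these genes are textbook targets of the nuclear receptor PPARα, and brown fat is rich in peroxisomes.

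Libraries held between 28691377 and 50380696 counts on named genes, and all 29 genes passed the low-count filter in each of the 4 tissues. No 2 of the 760 library pairs within a tissue had identical counts. The labels did not link libraries to individual mice, so tissues may share animals, which no fit took into account, and p-values measure the spread between these libraries, which are numbered 1 to 5 within each genotype and tissue in the order of deposition. Fgf21 had at most 3 counts in each FGF21 KO and dKO library of BAT and in BAT rose from 0.228 to 0.290 CPM (counts scaled to library size) in WT to 9.47 to 35.4 CPM in UCP1 KO. Ucp1 was at 531 to 1246 CPM in BAT of UCP1 KO and 1031 to 1897 CPM in dKO, under the 3208 to 8050 CPM of WT and FGF21 KO libraries. In iWAT, however, Ucp1 stood at 102 to 729 CPM in UCP1 KO against 2.66 to 16.8 CPM in WT. A gene count sums all exons, including those outside a deleted part, so the Ucp1 counts do not check the UCP1 KO label in iWAT.

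Tissue identity was scored as the mean log2(CPM + 0.1) of marker genes. The hepatocyte score was 12.6 to 13.3 in liver, the skeletal muscle score 13.0 to 13.3 in muscle, the brown adipocyte score 8.25 to 9.73 in BAT and the adipocyte score 9.19 to 11.7 in iWAT. In 9 of the 20 iWAT libraries the score of 8 lymph node genes (Cd79a, Cd3e and others) was at least 6.37, against at most 1.75 in the other libraries. These were WT libraries 4 and 5, FGF21 KO libraries 1, 3, 4 and 5, UCP1 KO library 2 and dKO libraries 1 and 3. In iWAT the score of 10 skeletal muscle genes was 10.3 in UCP1 KO library 1, 9.45 and 6.05 in WT libraries 5 and 4, 8.04 in FGF21 KO library 5 and at most 5.503 elsewhere. In BAT that score was 9.30 and 5.95 in UCP1 KO libraries 2 and 3 and 8.17 to 8.42 in dKO libraries 1, 3 and 4, against at most 3.40 in WT. No lymph node or skeletal muscle marker was at 0 in any BAT or iWAT library. In such bulk samples, fewer cells of a type and less RNA per cell cannot be told apart.

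In WT mice the peroxisomal genes were most abundant in liver, where they took up 1.19 ± 0.0256% of all counts (SD, n = 5). Their share was 0.414 ± 0.0235% in BAT, 0.318 ± 0.0368% in iWAT and 0.110 ± 0.00570% in muscle. The groups of this share did not overlap between tissues. In edgeR's quasi-likelihood test, which calls a gene at a Benjamini-Hochberg adjusted p under 0.01, 17 genes were higher and 8 lower in liver than in BAT (of all genes tested, 66.9% were called, 32.7% higher and 34.2% lower). Against muscle, 26 were higher and 2 lower in liver (73.7% of all genes, 35.3% higher and 38.4% lower), and against iWAT 25 were higher and 1 lower (74.5%, with 36.8% and 37.8%). BAT exceeded iWAT in 28 genes, with 1 lower (59.9%, with 27.5% and 32.4%), and exceeded muscle in 25 with none lower (63.3%, with 31.7% higher). Between iWAT and muscle 18 were higher and 8 lower in iWAT (73.8%, with 40.8% and 33%). The median log2 fold change of the 29 genes was 0.64 for liver against BAT, 1.83 for liver against iWAT, 2.38 for liver against muscle and 1.20 for BAT against iWAT.

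**Figure D1:**
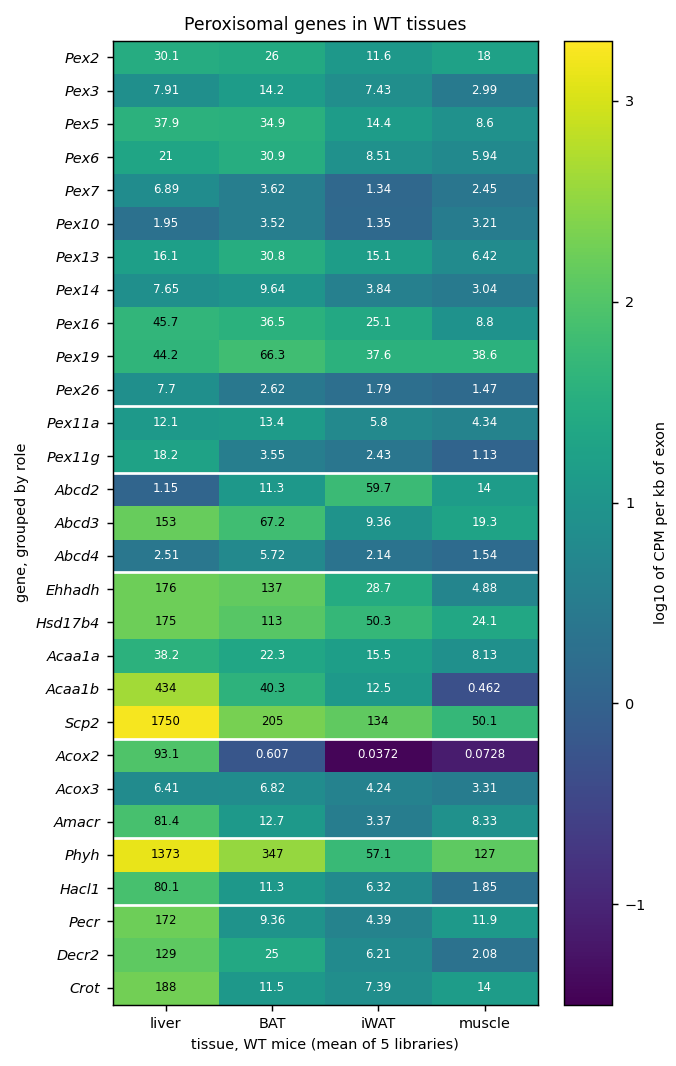
Mean CPM per kb of exon of the 29 genes in the 4 tissues of WT mice (columns, n = 5 libraries each), with rows grouped by role and the colour on a log10 scale. Scp2 and Phyh lead the liver column at 1750 and 1373 CPM per kb, and Acox2 runs from 93.1 in liver to 0.0372 in iWAT.

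By role, liver exceeded BAT in 11 of the 13 genes of beta-, alpha- and branched-chain oxidation and auxiliary steps with none lower, in 4 of the 11 import and biogenesis genes (Pex26, Pex7, Pex16 and Pex2) with 6 lower, in 1 of the 2 proliferation genes (Pex11g) and in 1 of the 3 transporter genes with 2 lower. Against iWAT 8 and against muscle 9 of the 11 import genes were higher in liver. In this paragraph and the next, CPM per kb was scaled across the 4 WT tissues, whereas the CPM of single libraries here and everywhere else was scaled within a tissue. The first scale runs at 1.29 times the second in liver, 1.20 in muscle, 0.948 in BAT and 0.618 in iWAT. Per kb of exon, the leading liver gene was Scp2, which encodes a sterol carrier protein and thiolase, at 1750 ± 61.3 CPM per kb, followed by Phyh, the phytanoyl-CoA hydroxylase that opens alpha-oxidation, at 1373 ± 123. The 5 WT liver libraries held 4747, 4617, 4917, 4789 and 4563 CPM of Scp2, a narrow spread. Acox2, the oxidase that acts on branched chains and on bile acid precursors, had the largest step of the 29 between liver and BAT, with a log2 difference of 7.27 ± 0.24 (edgeR, adjusted p = 6.88e-16). Pecr, an enoyl-CoA reductase, followed at 4.21 ± 0.13, Crot, which prepares shortened acyl chains for export, at 4.04 ± 0.16, and the thiolase gene Acaa1b at 3.44 ± 0.31. The 8 genes lower in liver than in BAT were the transporter genes Abcd2 and Abcd4 and the peroxin genes Pex13, Pex10, Pex3, Pex19, Pex6 and Pex14, with log2 differences between -3.29 (Abcd2) and -0.33 (Pex14). For the bifunctional enzyme gene Ehhadh the liver and BAT levels did not differ beyond their spread, with a log2 difference of 0.36 ± 0.24 (edgeR, adjusted p = 0.187).

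The other tissues had their own order. Phyh led in BAT at 347 ± 14.6 CPM per kb and in muscle at 127 ± 13.8, and Scp2 led in iWAT at 134 ± 26.2. The muscle libraries held 237, 205, 178, 193 and 193 CPM of Phyh. Abcd2, a transporter of very-long-chain and polyunsaturated acyl-CoA, stood second in iWAT at 59.7 ± 19.4 CPM per kb and last in liver at 1.15 ± 0.436, and it was the single gene lower in BAT than in iWAT (log2 difference -2.38 ± 0.25; edgeR, adjusted p = 9.32e-08). Its 5 liver libraries held 8.45, 4.97, 5.41, 4.68 and 2.95 CPM. Acox2 was last in the other 3 tissues, at 0.607 ± 0.207 CPM per kb in BAT, 0.0728 ± 0.0235 in muscle and 0.0372 ± 0.0183 in iWAT. The muscle and iWAT levels of Acox2 were not called different (edgeR, adjusted p = 0.0179).

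Acox2 and Acaa1b had the largest log2 fold changes among the genes called between genotypes in BAT, and Acaa1a, the neighbouring thiolase gene close in sequence to Acaa1b, moved the opposite way in BAT. Their RefSeq promoter windows are therefore shown, running from 250 bases before to 50 bases after an annotated start on GRCm38.p6, read 5′ to 3′ on the gene's strand, with capitals marking CG dinucleotides. Acox2 (1 of its 2 windows) lies at chr14:8258970-8259269 on the minus strand, Acaa1b at chr9:119157044-119157343 on the minus strand and Acaa1a at chr9:119341044-119341343 on the plus strand.
Acox2: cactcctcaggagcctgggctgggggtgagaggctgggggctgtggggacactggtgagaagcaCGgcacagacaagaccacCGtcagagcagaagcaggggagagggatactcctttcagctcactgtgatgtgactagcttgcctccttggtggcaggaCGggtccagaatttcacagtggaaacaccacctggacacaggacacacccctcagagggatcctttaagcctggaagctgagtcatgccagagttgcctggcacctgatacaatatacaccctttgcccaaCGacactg
Acaa1b: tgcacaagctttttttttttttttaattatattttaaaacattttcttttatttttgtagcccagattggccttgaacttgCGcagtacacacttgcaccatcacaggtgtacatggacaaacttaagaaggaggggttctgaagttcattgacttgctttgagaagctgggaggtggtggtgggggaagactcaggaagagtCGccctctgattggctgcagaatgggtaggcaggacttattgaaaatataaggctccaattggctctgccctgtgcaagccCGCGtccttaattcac
Acaa1a: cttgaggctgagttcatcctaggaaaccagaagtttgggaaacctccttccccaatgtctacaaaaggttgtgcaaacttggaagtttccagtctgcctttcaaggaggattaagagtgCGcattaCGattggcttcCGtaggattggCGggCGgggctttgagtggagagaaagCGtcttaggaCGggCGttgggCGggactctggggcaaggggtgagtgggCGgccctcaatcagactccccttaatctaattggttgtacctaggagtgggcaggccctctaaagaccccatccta
The ratio of observed to expected CG was 0.163 in this Acox2 window, 0.284 in Acaa1b and 0.481 in Acaa1a, against a median of 0.722 over the 28 windows of the 23 matched genes and 0.384 over all 32851 windows of the table. The letters AGGTCA, a nuclear receptor half-site, were found on either strand in the windows of Pex11g, Scp2 and Phyh, which is 10.7% of the 28 windows against 16.3% of all windows. That half-site repeated after 1 spacer base, the arrangement bound by PPAR with RXR, was in none of the 28 and in 0.0396% of all windows, and each such pair also counts as a half-site match.

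In BAT, UCP1 KO mice had more Acox2 and Acaa1b and modest shifts in other peroxisomal genes, some higher and some lower. Of the 29 genes, 4 rose and 5 fell against WT, when 25.2% of all 15729 genes tested were called, 13.8% higher and 11.4% lower. The 9 of 29 were thus near the share called over all genes. As a share of all counts, without the scaling of the fit, the 29 genes together took up 0.448 to 0.732% in UCP1 KO and 0.380 to 0.444% in WT, without overlap, and 0.401 to 0.555% in dKO and 0.385 to 0.446% in FGF21 KO, with overlap. The median log2 fold change was 0.04 for the 29 genes and 0.01 for all genes tested. Fitted on the WT and UCP1 KO libraries alone, 6 were called (17.1% of all genes tested), since the lower levels of Acaa1a, Pex6 and Phyh were then at adjusted p-values of 0.0121, 0.0166 and 0.0209 in edgeR. Macrophage markers moved in the same comparison, with 4 of 5 higher, a median log2 fold change of 1.04 and a score of 4.40 to 5.80 in UCP1 KO against 3.89 to 4.16 in WT, without overlap. All 10 skeletal muscle markers were positive, 4 of them called, with a score of 2.39 to 9.30 in UCP1 KO against 1.67 to 3.40 in WT, with overlap. All 6 hepatocyte markers (median 0.88) and all 8 lymph node markers (median 0.44) were positive, with 0 called. The part of macrophages, hepatocytes and lymph node cells in the peroxisomal values was not tested. With the skeletal muscle score in the model 8 of the 29 were called, 4 higher and 4 lower, when 21.5% of all genes were called.

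Acox2, at chr14:8225511-8259353 on the minus strand, changed most. Its level was 3.57, 2.75, 1.53, 2.12 and 1.88 CPM in the 5 WT libraries and 7.03, 9.45, 17.3, 19.4 and 51.6 CPM in the 5 UCP1 KO libraries. Every UCP1 KO library stood above every WT library, and UCP1 KO library 5 stood far above the rest. That library also had the lowest adipocyte score, 7.61 against at least 8.55 in the other BAT libraries, and the lowest brown adipocyte score, 8.25, and without it the log2 fold change was 2.48 and still called by edgeR. The log2 fold change was 3.13 ± 0.47 (SE), or 8.78-fold (edgeR, adjusted p = 6.49e-05), and lay between 2.48 and 3.35 when any 1 of the 20 BAT libraries was left out. Acaa1b, one of a pair of mouse genes for the peroxisomal thiolase, stood at 63.0, 68.2, 80.5, 88.4 and 117 CPM in WT and at 349, 151, 234, 198 and 267 CPM in UCP1 KO. Its groups did not overlap either, and its log2 fold change was 1.52 ± 0.25, or 2.86-fold (edgeR, adjusted p = 0.000126). Both genes are abundant in liver, so the hepatocyte markers were read beside them. Albumin (Alb) in UCP1 KO BAT was 0.0175 to 0.0608% of its liver level, and that share of the liver level of Acox2 came to 0.0466 to 0.162 CPM, against 7.04 to 67.7 CPM measured on the same scale. For Acaa1b the share came to 0.115 to 0.399 CPM against 166.9 to 350.3 CPM measured.

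The other genes that rose were Hsd17b4 and Pex14. Hsd17b4, the D-bifunctional enzyme of beta-oxidation, was at 392, 420.3, 388, 408 and 425 CPM in WT and 629, 499.7, 570.1, 508 and 467 CPM in UCP1 KO (log2 fold change 0.39 ± 0.10; edgeR, adjusted p = 0.00403). Pex14, part of the docking site for imported proteins, was at 55.3, 64.0, 68.6, 61.1 and 70.2 CPM in WT and 108, 82.3, 90.1, 75.03 and 87.4 CPM in UCP1 KO (log2 fold change 0.46 ± 0.13; edgeR, adjusted p = 0.00698). Neither gene had overlapping groups here, and UCP1 KO library 1 was highest for both. Both calls were close to the threshold. Leaving out WT library 1, 3 or 4 or UCP1 KO library 1 or 3 took the adjusted p of Hsd17b4 over 0.01, to at most 0.0128, and leaving out any WT library, UCP1 KO library 1, 3 or 5 or FGF21 KO library 1 or 4 did so for Pex14, to at most 0.0238. The annotated exons of Pex14 overlap an antisense transcript over 28.3% of their length, and whether counting used strand was not stated.

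The 5 genes that fell did so by less than 1 on the log2 scale. Abcd4, which encodes a transporter of the family that acts in lysosomal cobalamin export, was at 45.3, 55.5, 46.0, 49.3 and 45.7 CPM in WT and 36.9, 32.1, 36.8, 34.5 and 32.4 CPM in UCP1 KO (log2 fold change -0.49 ± 0.06; edgeR, adjusted p = 1.52e-05). Acaa1a, the neighbouring thiolase gene, was at 98.9, 99.8, 102, 114 and 106 CPM in WT and 95.4, 80.5, 90.0, 84.4 and 83.0 CPM in UCP1 KO (log2 fold change -0.27 ± 0.06; edgeR, adjusted p = 0.00114). Neither gene had overlapping groups. Acaa1a and Acaa1b share 360 windows of 100 bases, 7.21% of those in Acaa1a transcripts and 19.3% in Acaa1b, so the division of reads between the pair is uncertain, although their changes had opposite signs. Pex2, a ring-finger peroxin that ubiquitinates the import receptor, was at 69.7, 62.3, 59.6, 60.2 and 60.1 CPM in WT and 47.3, 44.5, 49.5, 54.7 and 41.6 CPM in UCP1 KO, without overlap (log2 fold change -0.40 ± 0.09; edgeR, adjusted p = 0.00179).

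Pex6, an ATPase that recycles the import receptor, fell with overlapping groups. It was at 115, 116, 136, 119 and 134 CPM in WT and at 121, 74.3, 84.3, 86.2 and 91.1 CPM in UCP1 KO, where library 1 lay within the WT range (log2 fold change -0.45 ± 0.10; edgeR, adjusted p = 0.00204). Phyh was at 722, 722, 677, 667 and 675 CPM in WT and 637, 398, 539, 565 and 439.9 CPM in UCP1 KO, apart in every library (log2 fold change -0.43 ± 0.12; edgeR, adjusted p = 0.00707). UCP1 KO libraries 2 and 5, the lowest for Phyh, had skeletal muscle scores of 9.30 and 2.39. Adjusted for that score as a covariate, Phyh was at -0.43 (edgeR, adjusted p = 0.0176), and in the 15 BAT libraries with a score of at most 5.5 Phyh was at -0.34 (adjusted p = 0.0124) and Pex6 at -0.33 (adjusted p = 0.0303), none of which was called. Leaving out any WT library or UCP1 KO library 2, 3 or 5 also took the adjusted p of Phyh over 0.01, to at most 0.0204.

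**Figure D2:**
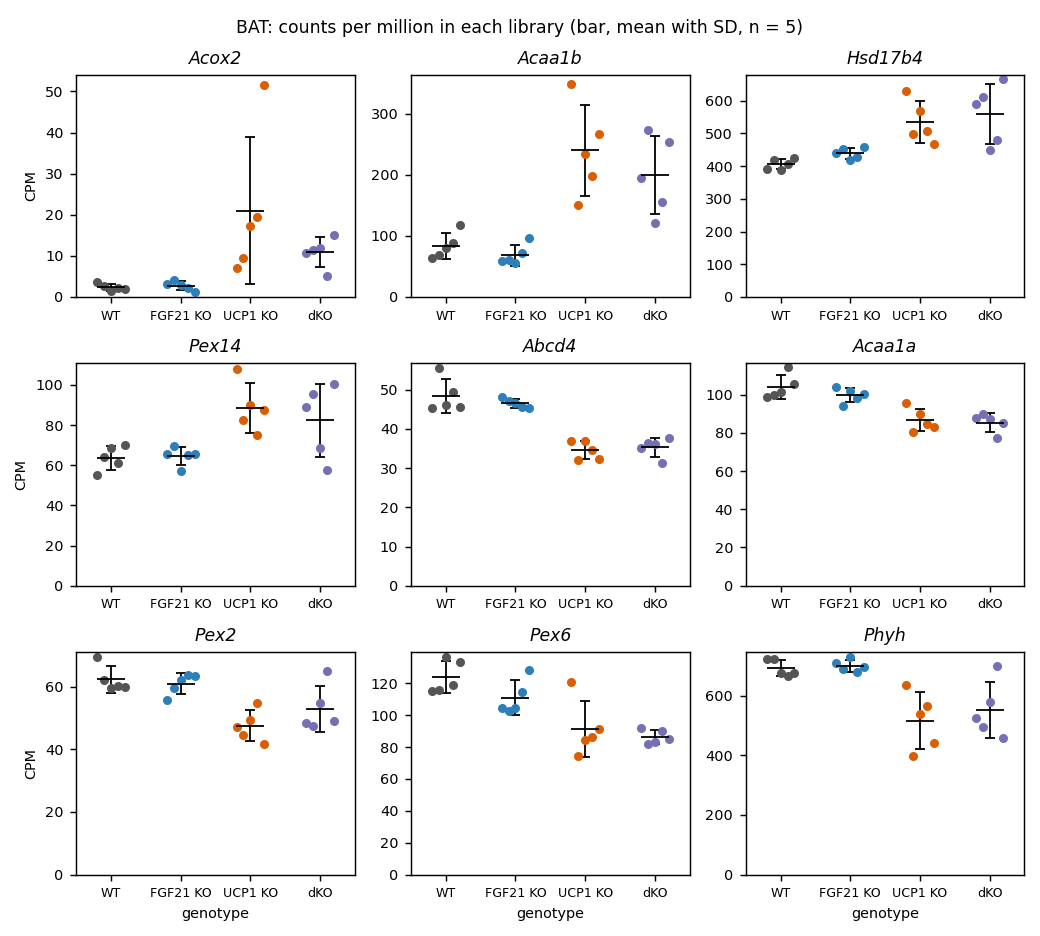
CPM of the 9 called genes in BAT (y axis from 0) by genotype, with 1 point per library, a bar at the mean and whiskers of 1 SD (n = 5). UCP1 KO and dKO points stand together, above WT and FGF21 KO for Acox2 and Acaa1b and below them for Abcd4 and Acaa1a, and UCP1 KO library 5 reaches 51.6 CPM for Acox2.

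By role, 1 of the 11 import and biogenesis genes rose (Pex14) and 2 fell (Pex2, Pex6), with a median log2 fold change of -0.08. Of the 5 beta-oxidation genes, 2 rose and 1 fell, with a median of 0.39. Of the 3 branched-chain genes 1 rose (Acox2), of the 2 alpha-oxidation genes 1 fell (Phyh), and of the 3 transporters 1 fell (Abcd4). None of the 2 proliferation genes Pex11a and Pex11g and none of the 3 auxiliary genes Pecr, Decr2 and Crot was called, with log2 fold changes between 0.04 and 0.09. Uncalled genes included Pex16, needed to form the peroxisomal membrane, at 0.49 ± 0.16 (edgeR, adjusted p = 0.0234) and the transporter gene Abcd3 at 0.44 ± 0.16 (adjusted p = 0.0366). Ehhadh varied widely within UCP1 KO, at 1674, 289, 269, 426 and 721 CPM against 266, 457, 458, 459 and 521 CPM in WT, and its log2 fold change of 0.64 ± 0.46 was within that spread (edgeR, adjusted p = 0.276). UCP1 KO library 1 held the highest level of its group in 22 of the 29 genes.

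The same comparison without FGF21, dKO against FGF21 KO, called 4 of the 29 genes in BAT, 2 higher and 2 lower, when 13.5% of all genes tested were called, 6.74% higher and 6.8% lower. Acox2 was at 10.8, 11.4, 11.8, 5.05 and 15.1 CPM in dKO and 3.05, 4.21, 2.83, 2.11 and 1.25 CPM in FGF21 KO (log2 fold change 1.99 ± 0.45; edgeR, adjusted p = 0.00369). Acaa1b was at 194, 274, 121, 155 and 253 CPM in dKO and 58.6, 59.9, 55.1, 72.3 and 97.1 CPM in FGF21 KO (log2 fold change 1.53 ± 0.25; edgeR, adjusted p = 0.000218). Both sets of libraries were apart without overlap. The albumin share of the liver level in dKO BAT set 0.134 to 0.195 CPM of Acox2 beside 5.45 to 15.5 CPM measured and 0.331 to 0.481 CPM of Acaa1b beside 124.2 to 286.8 CPM. Markers of other cell types were read in the same comparison. All 10 skeletal muscle markers (median 4.07, 0 called) and all 6 hepatocyte markers (median 1.19, 1 called) were positive. So were all 8 lymph node markers (median 1.31, 1 called) and all 5 macrophage markers (median 0.44, 1 called). The albumin share sets levels side by side without a test. Apart from the muscle score as a covariate, the part of these cell types was not tested. Abcd4 fell from 46.5 ± 1.13 to 35.3 ± 2.41 CPM (log2 fold change -0.40 ± 0.06; edgeR, adjusted p = 0.000207). Acaa1a fell from 99.6 ± 3.80 to 85.4 ± 4.83 CPM (log2 fold change -0.23 ± 0.06; edgeR, adjusted p = 0.00649), and its call was lost when any of 12 of the 20 libraries was left out (WT 1, 2, 3 or 5, FGF21 KO 1, 3, 4 or 5, or dKO 1, 3, 4 or 5), to an adjusted p of at most 0.0243. Adjusted for the muscle score, Acaa1a was at -0.18 (edgeR, adjusted p = 0.0756). The Acox2 call was lost without dKO library 5 or FGF21 KO library 4 or 5, to an adjusted p of at most 0.0118. The count of called genes ran from 2 without FGF21 KO library 4 or 5 to 7 without UCP1 KO library 2 or dKO library 4, and the share of all genes called in these refits was not recorded.

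Abcd2, Pex2, Pex6, Hsd17b4, Phyh and Pex14 were not called in that comparison. Abcd2 was at 36.3, 31.0, 49.1, 31.2 and 74.95 CPM in dKO and 139, 92.9, 135, 95.2 and 59.4 CPM in FGF21 KO, overlapping in 1 library of each (log2 fold change -1.24; edgeR, adjusted p = 0.0133). Pex2 was at 48.4, 47.3, 54.9, 64.97 and 49.2 CPM in dKO and 55.8, 59.7, 62.2, 63.9 and 63.6 CPM in FGF21 KO, overlapping (log2 fold change -0.21 ± 0.09; edgeR, adjusted p = 0.0851). Pex6 was at -0.37 (adjusted p = 0.0131), Hsd17b4 at 0.34 (adjusted p = 0.0141), Phyh at -0.35 (adjusted p = 0.0325) and Pex14 at 0.34 (adjusted p = 0.0491). Between UCP1 KO and dKO no gene of the 29 was called in BAT by edgeR or DESeq2, and edgeR called 0.0636% of all genes tested. An unadjusted edgeR p under 0.05 was found for 5 of the 29 and for 12.9% of all genes. The widest gap there was Acox2, at 21.0 ± 17.9 CPM in UCP1 KO and 10.8 ± 3.65 CPM in dKO (log2 difference 0.96 ± 0.43; edgeR, adjusted p = 0.358). The interaction, which asks whether UCP1 loss acted differently with and without FGF21, called none by either tool, and for Acox2 it was 1.14 ± 0.63 (edgeR, adjusted p = 0.905; 0% of all genes were called). FGF21 KO against WT likewise called none of the 29 by either tool, when edgeR called 0% and DESeq2 0.191% of all genes, and 0 of the 29 had an unadjusted edgeR p under 0.05, against 8.55% of all genes.

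Among the iWAT libraries, peroxisomal genes stood higher in UCP1 KO than in WT nearly throughout, but none passed the threshold. Of the 29 genes, 27 had a positive log2 fold change, against 45.5% of all 17380 genes tested, with a median of 0.46 against -0.03. An unadjusted p under 0.05 was found for 13 of the 29 and for 14.7% of all genes. EdgeR called 0 (0.61% of all genes tested were called) and DESeq2 called 3, namely Abcd3, Ehhadh and Acox2 (3.43% called). The 5 beta-oxidation genes had a median of 0.73, the 2 alpha-oxidation genes 0.77, the 3 branched-chain genes 0.60, the 11 import genes 0.38 and the transporters and auxiliary genes 0.30 each. The exceptions in sign were Abcd2 at -0.09 and Pex26, a membrane anchor of the Pex6 ATPase, at -0.06.

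**Figure D3:**
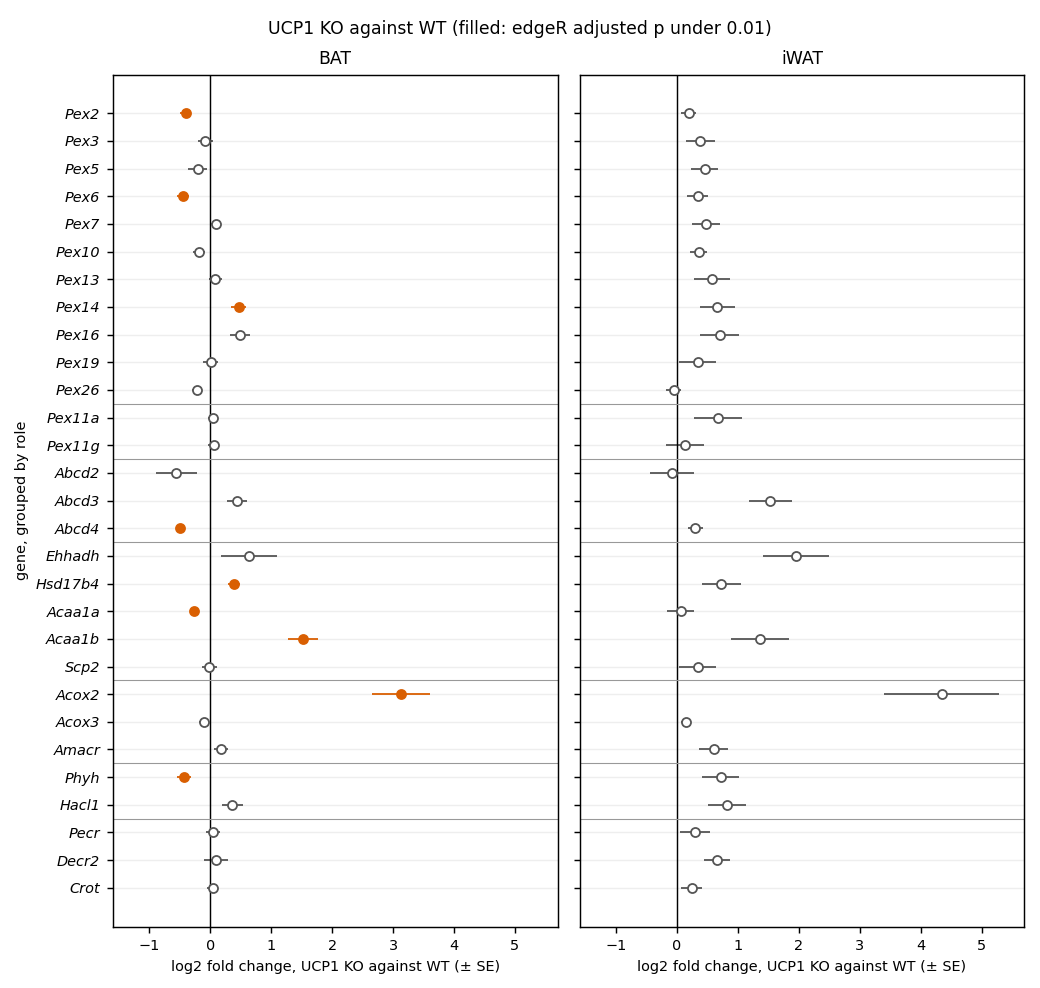
Log2 fold change of UCP1 KO against WT for the 29 genes (rows, grouped by role) in BAT and iWAT, with whiskers of 1 SE and filled points for an edgeR adjusted p under 0.01. In BAT 9 points are filled on both sides of 0, and in iWAT 27 of 29 points lie to the right of 0 with wider whiskers and none filled.

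Acox2, Abcd3 and Ehhadh, singled out here after their values were seen, stood highest. Acox2 was at 0.193, 0.231, 0.377, 0.239 and 0.0732 CPM in WT, from 3 to 14 counts per library, and at 1.01, 0.927, 4.80, 5.42 and 10.5 CPM in UCP1 KO, from 33 to 293 counts. All UCP1 KO libraries lay above all WT libraries (log2 fold change 4.34 ± 0.95; edgeR, adjusted p = 0.0198). In dKO it was back at 0.0818, 0.268, 0.232, 0.420 and 0.0832 CPM, below every UCP1 KO library (log2 difference of UCP1 KO against dKO 4.38 ± 0.95; edgeR, adjusted p = 0.0221). In FGF21 KO it was at 0.196, 0.467, 0.0222, 1.80 and 0.116 CPM, and library 4, the high one, had a hepatocyte score of 5.40. The albumin share there set 1.10 CPM of Acox2 beside 2.18 CPM measured, whereas in UCP1 KO iWAT it set 0.122 to 0.330 CPM beside 0.902 to 8.66 CPM. The interaction for Acox2 was 5.60 ± 1.27 (edgeR, adjusted p = 0.150), and none of the 29 was called by edgeR (0% of all genes), with 1 at an unadjusted p under 0.05 (9.98% of all genes). DESeq2 called 1 of the 29, Acox2 (0.357% of all genes). The edgeR value and this call both include FGF21 KO library 4 and FGF21 KO libraries as low as 0.0222 CPM.

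Abcd3, the most abundant peroxisomal fatty acyl transporter of liver, was at 106, 112, 101, 98.3 and 80.8 CPM in WT and 217, 124, 276, 272 and 546 CPM in UCP1 KO iWAT. The groups were apart, and the log2 fold change was 1.53 ± 0.35 (edgeR, adjusted p = 0.0281). Ehhadh was at 83.9, 119, 169, 199 and 123 CPM in WT and 590.0, 214, 335, 394 and 1127 CPM in UCP1 KO, again without overlap, at 1.95 ± 0.55 (edgeR, adjusted p = 0.0657). In dKO, Ehhadh was at 38.2, 76.1, 55.5, 135 and 223 CPM, which reached into the UCP1 KO range (log2 difference of UCP1 KO against dKO 2.34; edgeR, adjusted p = 0.0332). Against dKO, 28 of the 29 genes had a positive log2 fold change in UCP1 KO, with a median of 0.49, and 15 had an unadjusted p under 0.05, against 45.3% positive and 14.2% under 0.05 among all genes. EdgeR called none of them (0.466% of all genes) and DESeq2 called Abcd3, Ehhadh and Acox2 (3.08%). The 10 skeletal muscle markers were all positive against dKO, with a median of 4.35 and 0 called, and 9 of 10 were positive against WT, with a median of 1.05. With the muscle score included as a covariate, edgeR again called none of the 29 in either comparison. It called 0.604% of all genes against WT and 0.322% against dKO. The medians of the 29 were 0.46 against WT and 0.55 against dKO.

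**Figure D4:**
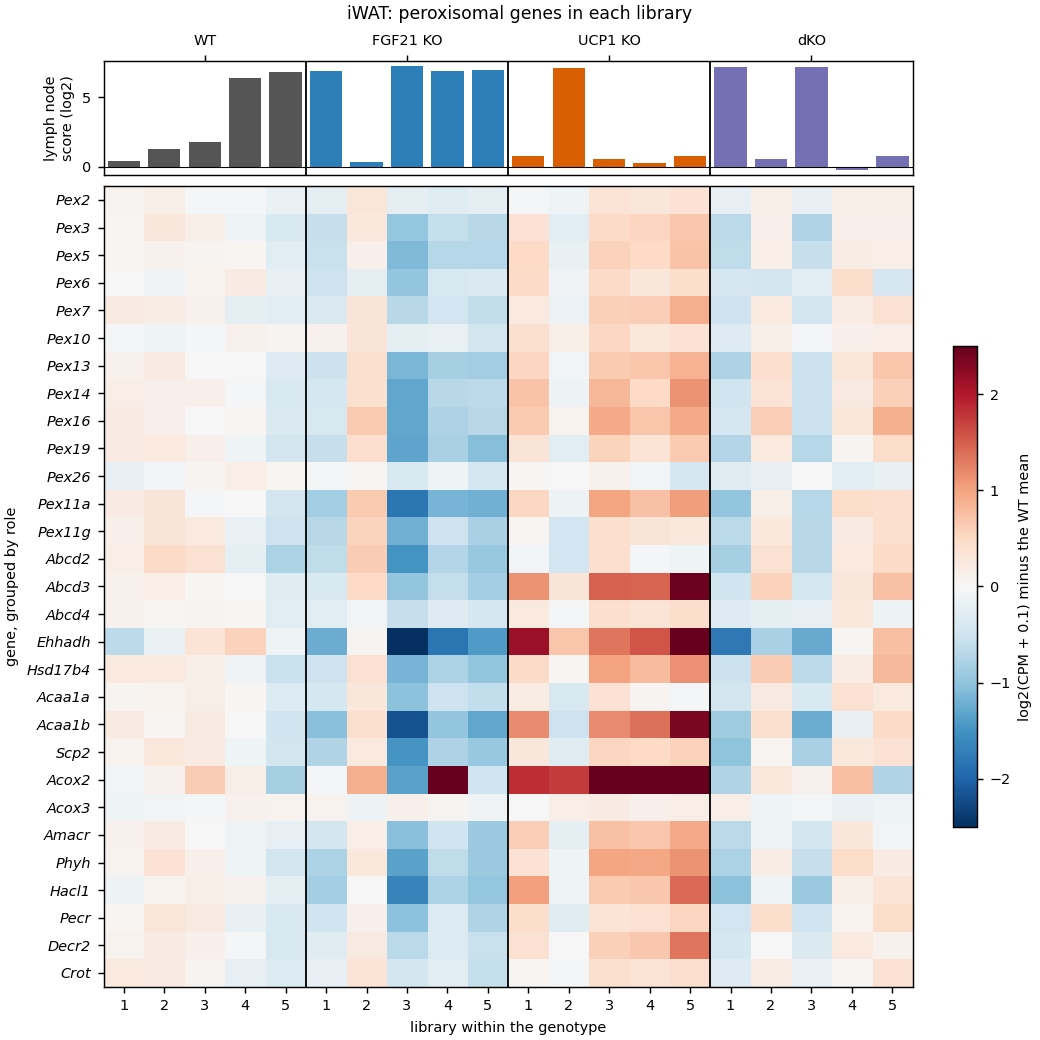
Log2(CPM + 0.1) minus the WT mean for the 29 genes (rows) in each of the 20 iWAT libraries (columns), with colours ending at ±2.5, under bars of the lymph node score of the same libraries. The 4 FGF21 KO libraries with high bars are blue in most rows and FGF21 KO library 2, with a low bar, is red, and UCP1 KO library 2, with a high bar, is paler than the other UCP1 KO libraries.

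Within genotypes, many of the 29 genes stood high or low in the same iWAT libraries, often but not always with the lymph node score. FGF21 KO library 2, the only low-score library of its group, held the highest level in 27 of the 29 genes. UCP1 KO library 2, the only high-score library of its group, held the lowest in 27, and WT library 5, with the highest WT score of 6.80, held the lowest in 25. That WT library also had a skeletal muscle score of 9.45 and the lowest adipocyte score of its group, 9.76. WT library 4, with a lymph node score of 6.37, went the other way, with the lowest level in 0 genes and the highest in 5. The log2 fold changes were therefore also computed with the score as a covariate and in the 11 low-score libraries alone (3 WT, 1 FGF21 KO, 4 UCP1 KO and 3 dKO). With the covariate, UCP1 KO against WT called Abcd3 at 1.24 (adjusted p = 0.00301) and Acox2 at 4.02 (adjusted p = 0.00815), with 25 of 29 genes positive, a median of 0.30 and 4.65% of all genes called. In the low-score libraries 27 of 29 were positive with a median of 0.44, and Acox2 at 4.31 (adjusted p = 0.00825), Abcd3 at 1.61 (adjusted p = 0.00709) and the import receptor gene Pex5 at 0.49 (adjusted p = 0.00316) were called, with 4.15% of all genes called. Without UCP1 KO library 2 alone, Abcd3 at 1.73 (adjusted p = 0.00533) and Acox2 at 4.60 (adjusted p = 0.00734) were called against WT, and Acox2 at 4.65 (adjusted p = 0.00680) against dKO. Against dKO, 8 of the 29 were called with the covariate (4.36% of all genes), and none in the low-score libraries (1.08%), where 26 were positive.

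FGF21 KO against WT in iWAT had 27 of the 29 genes negative, with a median of -0.46 against -0.01 for all genes, 5 at an unadjusted p under 0.05 (17.4% of all genes) and none called by edgeR (0.00575% of all genes) or DESeq2. In the low-score libraries the direction turned, with 24 of 29 positive and a median of 0.17, though this rested on 1 FGF21 KO library. With the score as a covariate 2 of 29 were positive and the median was -0.23. The dKO against FGF21 KO comparison had 26 of 29 positive with a median of 0.44, 1 at an unadjusted p under 0.05 (8.62% of all genes) and none called by either tool (0.0115% of all genes), and in the low-score libraries 11 were positive with a median of -0.04. Neither direction is reported as a difference between these genotypes.

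The iWAT levels also stood beside markers of brown adipocytes. The brown adipocyte score, which includes Ucp1 itself, was 5.59 to 8.46 in UCP1 KO iWAT, 1.28 to 2.85 in WT, 1.14 to 3.85 in dKO and -0.43 to 2.46 in FGF21 KO, and 4 of its 5 genes rose in UCP1 KO against WT. WT BAT, with a score of 8.48 to 9.30, exceeded WT iWAT in 28 of the 29 genes as described above. The part of brown-like cells in the iWAT values was not tested.

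Whether the UCP1 KO effect differed between the adipose depots was tested directly in the 40 BAT and iWAT libraries. Of the 29 genes, 3 were called, all with a lower effect in BAT (6.19% of all genes were called, 3.99% with a lower effect), and 28 of 29 differences were negative, with a median of -0.43 against 0.05 for all genes tested. For Abcd4 the difference of the log2 fold changes was -0.78 ± 0.13 (edgeR, adjusted p = 8.94e-05), for Pex6 -0.77 ± 0.20 (adjusted p = 0.00821) and for Pex2 -0.58 ± 0.14 (adjusted p = 0.00640). In iWAT, Abcd4 was at 29.9, 28.4, 28.97, 28.2 and 23.1 CPM in WT and 32.7, 26.8, 37.1, 35.1 and 37.4 CPM in UCP1 KO, and Pex6 at 51.8, 49.0, 55.4, 60.0 and 45.6 CPM against 72.7, 49.0, 72.7, 63.5 and 70.5 CPM, so both had overlapping groups there while they fell in BAT. The Abcd4 call held when any 1 of the 20 WT and UCP1 KO libraries of both depots was left out, and the other libraries of this fit were not left out. The Pex2 call was lost without WT library 5 or UCP1 KO library 3, 4 or 5 of iWAT or WT library 1 or 2 or UCP1 KO library 2 or 5 of BAT, to an adjusted p of at most 0.0155. The Pex6 call was lost without WT library 1, 2 or 5 or UCP1 KO library 1, 3 or 5 of iWAT or WT libraries 2 to 5 or UCP1 KO libraries 2 to 5 of BAT, to at most 0.0193. The count was 1 without WT library 5 or UCP1 KO library 3 or 5 of iWAT or WT library 2 or UCP1 KO library 2 or 5 of BAT, and 5 without UCP1 KO library 1 of BAT. The share of all genes called in these refits was not recorded. Neither Acox2, at -1.16 ± 0.93 (edgeR, adjusted p = 0.458), nor Acaa1b, at 0.19 ± 0.53 (adjusted p = 0.865), was called different between the depots.

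In liver, where these genes are most abundant, no genotype comparison called any of the 29 by edgeR or DESeq2, and the interaction called 0 (0% of all genes in edgeR), with 0 at an unadjusted p under 0.05 (5.16% of all genes). For UCP1 KO against WT the log2 fold changes ran from -0.35 (Pex10) to 0.13 (Crot), with a median of -0.05, 2 at an unadjusted p under 0.05 (10.2% of all genes) and 0.0694% of all genes tested called by edgeR. Decr2, the peroxisomal dienoyl-CoA reductase, was at 246, 219, 242, 256 and 239 CPM in UCP1 KO and 263, 272, 267, 260.5 and 266 CPM in WT, lower in every library but not called. Acox2 was at 224, 266, 243, 261 and 186 CPM in UCP1 KO and 267, 258, 285, 282 and 246 CPM in WT, overlapping. EdgeR called 0.229% of all genes for FGF21 KO against WT and 0.00694% each for dKO against FGF21 KO and UCP1 KO against dKO. An unadjusted p under 0.05 was found for 0, 1 and 2 of the 29 in these comparisons, against 7.54%, 6.75% and 8.25% of all genes. The lowest adjusted p among all these liver values was 0.287, for Pex10 in UCP1 KO against WT.

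Muscle gave the same count. None of the 29 genes was called by edgeR or DESeq2 in UCP1 KO against WT (edgeR called 0.0265% of all genes), dKO against FGF21 KO (0.0595%), UCP1 KO against dKO (0%), FGF21 KO against WT (0.00662%) or the interaction (0%), and 2, 0, 3, 2 and 0 genes had an unadjusted p under 0.05, against 9.81%, 7.96%, 11.7%, 12.9% and 7.48% of all genes. The lowest adjusted p was 0.135 for Pex11a, a gene of peroxisome division that PPARα ligands induce in liver, at 16.8, 13.5, 16.4, 13.8 and 12.5 CPM in FGF21 KO and 12.4, 12.8, 9.48, 11.4 and 11.4 CPM in WT (log2 fold change 0.35 ± 0.11; edgeR). These groups overlapped. Acox2 and Acaa1b were barely detected in WT muscle, at 7 to 14 and 7 to 63 counts per library, so a change in them was hardly measurable there.

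Other peroxisomal genes, a list of 35 with no member in common, were read for comparison. In BAT of UCP1 KO mice 1 of the 32 tested rose and 7 fell, with a median log2 fold change of -0.06, when 25.2% of all genes were called. The riser was Acot8, a peroxisomal acyl-CoA thioesterase, at 0.89 ± 0.15 (edgeR, adjusted p = 0.000149), and the genes that fell included Pxmp2, a membrane channel protein, at -1.38 ± 0.28 (adjusted p = 0.000788), and Gstk1, a glutathione transferase, at -0.59 ± 0.10 (adjusted p = 0.000128). In dKO against FGF21 KO 1 rose and 6 fell, when 13.5% of all genes were called. In iWAT of UCP1 KO mice none of the 34 tested was called by edgeR, 12 had an unadjusted p under 0.05 (14.7% of all genes), and 28 were positive (45.5% of all genes) with a median of 0.37 against -0.03 for all genes.

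Of 5 regulator genes, Ppara, which encodes PPARα, was called in iWAT. It was at 11.6, 15.3, 12.1, 24.8 and 20.5 CPM in WT, 76.2, 69.9, 161, 191 and 374 CPM in UCP1 KO and 6.85, 18.5, 13.1, 26.7 and 16.7 CPM in dKO, with UCP1 KO above both in every library. The log2 fold change was 3.38 ± 0.56 against WT (edgeR, adjusted p = 0.00382) and 3.43 ± 0.57 against dKO (adjusted p = 0.00410). In BAT Ppara was at -0.70 ± 0.23 in UCP1 KO against WT and was not called (adjusted p = 0.0208), while Rxra, its binding partner, fell by 0.66 ± 0.12 (adjusted p = 0.000232), from 95.3 ± 6.76 to 60.5 ± 12.1 CPM. Ppargc1a, Ppard and Pparg were not called in either depot.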

How the data were processed

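RNA of 4 tissues from 4 mouse genotypes was sequenced in 80 libraries. The authors aligned reads with STAR, named in the submitters' processing notes without a version, and counted them per gene with HTSeq. They deposited raw read counts, whole numbers without normalization, 1 file per library, and the strand setting used in counting is not given in the sources used here. A row without a gene name held at most 3.42e-05% of the counts and was left out. Depth was 28691377 to 50380696 counts per library.

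From these counts, genes of a tissue were kept with a maximum over 15, a sum over 75 and at most 10 of 20 libraries at 0, which left 15729 genes in BAT, 17380 in iWAT, 14407 in liver and 15114 in muscle. In each tissue, edgeR 4.0.16 (under R 4.3.3, beside limma 3.58.1) fitted a quasi-likelihood model to the TMM-scaled counts of all 20 libraries, which share the spread, with 1 mean for each genotype. Benjamini-Hochberg adjustment ran over all genes tested, and genes with an adjusted p under 0.01 were called. Each SE is the log2 fold change divided by the square root of its F statistic. BAT and iWAT were also fitted together (40 libraries, 17441 genes), as were the 20 WT libraries (17216 genes). CPM was computed within each of these fits, so CPM of a gene differs between them, by a factor of 0.618 (iWAT) to 1.29 (liver) between the WT fit and the fit of the tissue, and CPM per kb divides by the union of exons of the GENCODE annotation on GRCm38. Promoter windows came from RefSeq.

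Libraries were grouped by the tissue and genotype in their labels. Values were given per library for genes called in UCP1 KO against WT in BAT or iWAT, in UCP1 KO against dKO, or in liver or muscle, and for the highest and lowest genes per kb of each WT tissue, with Fgf21 as the check of the labels; others named are described by counts and ranges, and Acox2, Abcd3 and Ehhadh in iWAT, Decr2, Pex11a, the genes shown beside the called ones and Ucp1 were added after their values were seen. The genes and lists were chosen with earlier results of these data known, so no list is independent evidence. Alternatives were DESeq2 1.42.0, RLE factors, no low-count filter, an adjusted p under 0.05, only the genotypes compared, a marker score as covariate and leaving out each library in turn (for the difference between depots, its 20 WT and UCP1 KO libraries). Restricting iWAT to libraries with a lymph node score of at most 4, BAT to libraries with a skeletal muscle score of at most 5.5, and summing both deposited Pex6 rows were added after seeing the data. The fits were tested on simulated data.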

Additional observations from a re-analysis of the deposited data

Results flagged for a closer look

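Of 82 groups of 5 libraries checked, 7 had a library far from the others by Dixon's criterion at 95%, and chance flags about 1 in 20 groups. In BAT, these were Acox2 in UCP1 KO, where library 5 was at 51.6 CPM and the next at 19.4, and Pex2 in WT, where library 1 was at 69.7 CPM and the next at 62.3. Also in WT BAT, Ehhadh was at 266.3 CPM in library 1 below the next at 457, and Fgf21 at 0.290 CPM in library 5 above the next at 0.244. In iWAT, they were Abcd4 in WT, where library 5 was at 23.1 CPM below the next at 28.2, and Acox2 and Ehhadh in FGF21 KO, where library 4 was at 1.80 CPM and library 2 at 140.0 CPM, with the next at 0.467 and 55.9. The effect of UCP1 loss differed between BAT and iWAT, by the test of that difference, for Abcd4 (-0.78 on the log2 scale; edgeR, adjusted p = 8.94e-05), Pex6 (-0.77, adjusted p = 0.00821) and Pex2 (-0.58, adjusted p = 0.00640).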

How the results depend on the processing

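Among the recomputed values for single genes, 4384 kept their direction and their side of the threshold, 165 were no longer called, 21 became called, and 0 changed direction. Only genes called in the main fit and Acox2, Abcd3 and Ehhadh in iWAT were followed, so directions of other genes were not counted. Most values came from the WT tissue comparisons. With 1 library left out, 3136 WT values stayed the same and 44 were no longer called. Among genotype values 376 stayed the same, 60 were no longer called and 4 became called. All 21 that became called were genotype values. In BAT, dKO against FGF21 KO called 4 of the 29 genes (13.5% of all genes), 8 with DESeq2 (3065 of 15729 genes), 10 at an adjusted p under 0.05 (28%) and 7 in libraries with a low skeletal muscle score (13%). UCP1 KO against WT in BAT called 9, and 6 with only those genotypes in the model (17.1%). In iWAT, UCP1 KO against WT called 0 (0.61%), 3 with DESeq2 (3.43%), 2 at 0.05 (2.59%), 2 with the lymph node score in the model (4.65%) and 3 in low-score libraries (4.15%). UCP1 KO against dKO in iWAT called 0 (0.466%), 3 with DESeq2 (3.08%), 2 at 0.05 (2.32%) and 8 with that score in the model (4.36%), and the iWAT interaction 1 with DESeq2 (0.357%). The difference between BAT and iWAT called 3 (6.19%), and 5 at 0.05, where the share of all genes was not computed. In WT, requiring also an absolute log2 fold change over 1 left 14 of 25 genes for liver against BAT, 19 of 29 for BAT against iWAT and 16 of 26 for iWAT against muscle. The share of all genes passing that size cut was not computed, so these counts cannot be set against it. The causes of these shifts were not tested.

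With each library of a fit left out in turn (for the difference between depots, only its 20 WT and UCP1 KO libraries), the number called was 6 to 10 for BAT UCP1 KO against WT, 2 to 7 for BAT dKO against FGF21 KO, 0 to 2 for iWAT UCP1 KO against WT, 0 to 1 for iWAT UCP1 KO against dKO, 1 to 5 for the difference between depots, and 0 to 0 for every other genotype comparison. It was 22 to 25 for WT liver against BAT, 25 to 26 for liver against iWAT, 28 to 28 for liver against muscle, 29 to 29 for BAT against iWAT, 25 to 26 for BAT against muscle and 24 to 27 for iWAT against muscle. The share of all genes called in these refits was not recorded, so the ranges cannot be set against it. Pex6 kept its call in BAT with both of its deposited rows summed. No paired analysis was possible because the labels give no replicate numbers, neither between genotypes nor between tissues that may come from the same mice. Depth limited Acox2 in WT iWAT and muscle, at 3 to 14 and 7 to 14 counts per library. It also limited Acox2 in dKO and FGF21 KO iWAT, at 0.0715 and 0.0282 CPM at their lowest without the scaling of the fit.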
